A study of Arabidopsis thaliana with 16 samples.

Results

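Of 9 genes that govern seedling responses to light, 8 differed from Col in at least 1 of 3 Arabidopsis thaliana lines that carried engineered ethylene signalling proteins. The set holds the photoreceptor genes PHYA and PHYB, the transcription factor genes PIF1, PIF3, PIF4, PIF5, HFR1 and HY5, and the ubiquitin ligase gene COP1. They were chosen by gene identifier. Beside the 8 of 9, 10057 genes of any kind appear in at least 1 RNA table. The annotation holds 27444 nuclear protein-coding genes, unexpressed ones included. A finite fold in all 3 tables, as for PIF3 and PIF4 below, was listed for 1824 genes. Nothing particular to the members is drawn from these counts. PIF3 was lower and PIF4 was higher in all 3 lines, PHYA, PIF5 and HY5 each differed in 2 lines, and PHYB, PIF1 and COP1 each differed in 1. HFR1 was not listed in any of the 3 tables. Peaks of EIN2 antibody chromatin lay at PHYA, PIF1, PIF5, HFR1 and HY5 in 1 or 2 of 6 libraries each, and none lay at PIF3 or PIF4. Single libraries had peaks at 0.554% to 4.82% of all nuclear protein-coding genes. The share over the 6 libraries together was not counted, so these shares are no like comparison for the 5 members.

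The 3 RNA lines share an ein3-1 eil1-1 background, in which EIN3 and its relative EIL1 are mutated. By their names, the first line carries EIN2C-EIN3DB, the carboxyl-terminal part of EIN2 joined to the DNA binding domain of EIN3, and the second carries EIN2C-EIN3DB-K245N, the same fusion with a substitution. The remaining line carries EIN2 with the substitution S645A and is called EIN2-S645A, as in its sample titles; other labels of these samples write the protein as EIN2C or the substitution with an extra digit. Each line had 2 libraries, all from seedlings in air, and was compared with Col. Chromatin bound by an EIN2 antibody (ChIP-seq) was sequenced for EIN2C-EIN3DB in Col-0, in 1 ethylene library and 1 library titled air, and in ein3-1 eil1-1, in 2 ethylene and 2 air libraries. All seedlings were 3 days old, whole, grown in the dark at 24 °C and treated for 4 h with 10 ppm ethylene or with air. The sources used here do not give the promoter behind each transgene, the number of transformants behind each line or the treatment of Col. An untransformed ein3-1 eil1-1 library is not among the samples, so in each line the transgene and the double mutation cannot be told apart. No Col RNA library is among the samples either, so it is unknown whether Col was grown and sequenced with the lines. In every fold over Col, a difference in batch or preparation cannot be told apart from an effect of the line. The library titled air in Col-0 has an ethylene label in another field, and the titles are followed here.

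The RNA tables hold 1 value per line with both libraries pooled, in FPKM, a read count scaled by transcript length and library size, so the spread between libraries and the depth of RNA libraries are unknown. They list only genes whose fold reached 2 and whose q-value stayed under 0.05, and an unlisted gene may have missed the fold, the q-value or the level. In such bulk samples, fewer cells of a type and less RNA per cell cannot be told apart. The 6 ChIP libraries kept 3743192 to 10515608 tags, and the labels do not say whether replicates came from separate cultures.

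Phytochromes are photoreceptors for red and far-red light. In darkness the PIF proteins, basic helix-loop-helix transcription factors, hold the seedling in the pale and elongated etiolated form, and light-activated phytochromes bind them and lead to their removal. COP1 marks HY5 and HFR1, which promote the light-grown form, for degradation in the dark. Ethylene acts on the same seedling traits, and earlier studies found the ethylene factor EIN3 at the PIF3 promoter.

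PHYA, the photoreceptor of far-red light that is most abundant in etiolated seedlings, was lower in EIN2C-EIN3DB and in EIN2-S645A. In the authors' deposited table for EIN2C-EIN3DB, PHYA (AT1G09570, chromosome 1, 3095256 to 3100357, TAIR10) had 154 FPKM and a log2 fold of -1.34 over Col (q = 0.000185). The authors' deposited table for EIN2-S645A gives it 99.3 FPKM and a log2 fold of -1.62 (q = 0.000224). The EIN2C-EIN3DB-K245N table does not list it. Within each of its 2 tables PHYA had the highest FPKM of the listed members although it was lower than in Col.

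PHYB, the main photoreceptor of red light in grown seedlings, was listed in the EIN2C-EIN3DB table alone, as lower. The authors' deposited table for that line gives PHYB (AT2G18790, chromosome 2, 8139881 to 8144430) 18.5 FPKM and a log2 fold of -1.09 (q = 0.000185). This fold lay close to the limit of the table: 87.6% of its lower genes with a finite fold had a larger fall. A gene with a fold just under 2 would not be listed, so the absence of PHYB from the other 2 tables does not show a difference between lines.

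Among the PIF genes, PIF3 and PIF4 moved in opposite directions in every line. PIF3 promotes hypocotyl growth and holds back chlorophyll synthesis in the dark. PIF3 (AT1G09530, chromosome 1, 3076582 to 3079539) had 15.4 FPKM and a log2 fold of -2.22 over Col in the authors' deposited table for EIN2C-EIN3DB. The authors' deposited table for EIN2C-EIN3DB-K245N gives it 12.5 FPKM and a log2 fold of -2.11, and that for EIN2-S645A gives it 12.7 FPKM and a log2 fold of -2.14. The q-values of PIF3 were 0.000185, 0.000315 and 0.000224 in the same order of lines. The 3 folds spanned little: in the authors' deposited tables each corresponds to a level 4.32 to 4.66 times lower than in Col. PIF3 was the member with the largest fall in both fusion lines and the next largest, after HY5, in EIN2-S645A.

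PIF4, which drives growth in warmth and shade, was higher in all 3 lines. PIF4 (AT2G43010, chromosome 2, 17886427 to 17889050) had 43.2 FPKM and a log2 fold of 1.98 in the authors' deposited table for EIN2C-EIN3DB. In the authors' deposited table for EIN2C-EIN3DB-K245N it reached 52.4 FPKM and a log2 fold of 2.67, the largest rise of any member in any line. The authors' deposited table for EIN2-S645A gives PIF4 22.1 FPKM and a log2 fold of 1.38. Its rank among higher genes differed accordingly: 8.28% of the higher genes in the EIN2C-EIN3DB-K245N table rose more than PIF4, against 27.7% in the EIN2C-EIN3DB table and 75.9% in the EIN2-S645A table. The q-values of PIF4 equalled those of PIF3 in each authors' deposited table. Both genes had the smallest Cuffdiff p-value of each table, 5e-05, so the equal q-values do not show equal strength of evidence.

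PIF5, the closest relative of PIF4, was higher in 2 of the lines in which PIF4 was higher. PIF5 (AT3G59060, chromosome 3, 21827978 to 21830507) had 29.1 FPKM and a log2 fold of 1.44 in the authors' deposited table for EIN2C-EIN3DB-K245N (q = 0.000315). In the authors' deposited table for EIN2-S645A it had 23.2 FPKM and a log2 fold of 1.07 (q = 0.00079). The EIN2C-EIN3DB table does not list it. In both tables that list PIF5, the rise of PIF4 was the larger.

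PIF1, a repressor of seed germination and of chlorophyll synthesis in the dark, was listed once. PIF1 (AT2G20180) had 13.6 FPKM and a log2 fold of -1.32 in the authors' deposited table for EIN2C-EIN3DB (q = 0.000185). The locus given for it, chromosome 2, 8701013 to 8706900, runs together with the overlapping neighbour AT2G20170. Reads from the overlap of the 2 genes could not be told apart here, so this value is uncertain. HFR1, an atypical member of the same protein class that binds PIFs and keeps them from DNA, has no RNA value in any table.

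**Figure D1:**
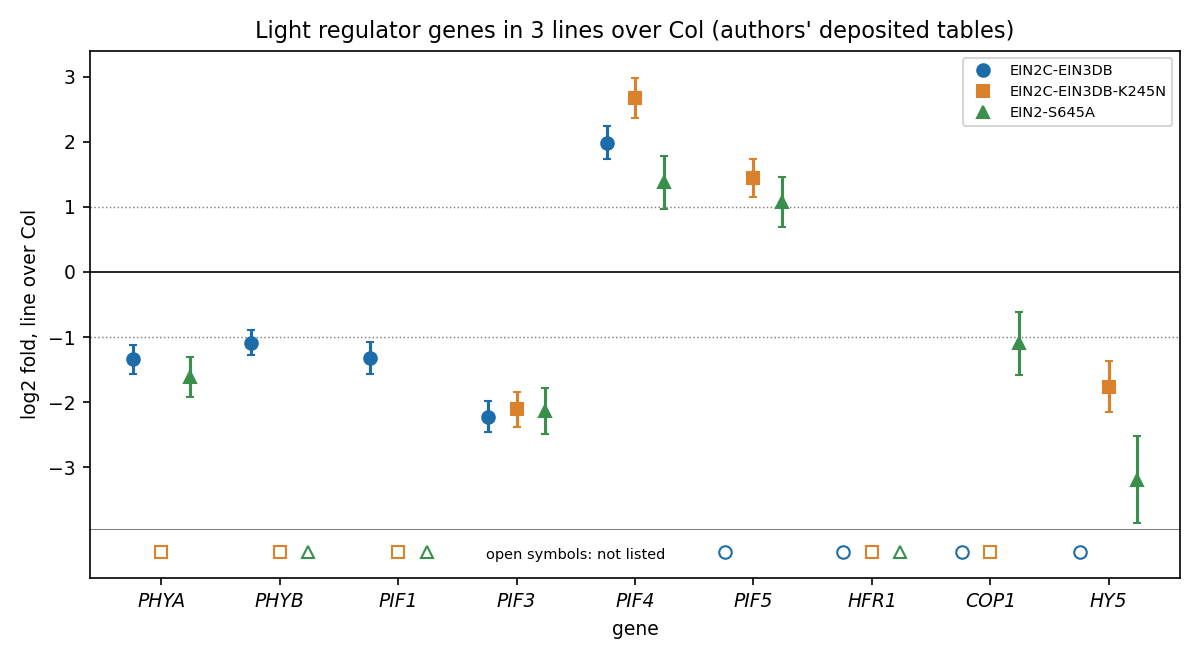
Log2 fold over Col (vertical axis) of the 9 genes (horizontal axis) in the 3 lines, with filled symbols for listed genes and open symbols at the bottom for genes not listed; bars are the standard error implied by the deposited test statistic and dotted lines mark a fold of 2. PIF3 sits between -2.22 and -2.11 in all 3 lines, while PIF4 spreads from 1.38 to 2.67.

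HY5, the bZIP factor that promotes the light-grown form, was lower in 2 lines and had the largest fall of any member. HY5 (AT5G11260, chromosome 5, 3593380 to 3594992) had 7.67 FPKM and a log2 fold of -1.76 in the authors' deposited table for EIN2C-EIN3DB-K245N (q = 0.000315). The authors' deposited table for EIN2-S645A gives HY5 2.93 FPKM and a log2 fold of -3.19 (q = 0.000424), 9.13 times lower than in Col. By that fold, 4.02% of the lower genes of that table with a finite fold fell further. Its standard error, as implied by the deposited test statistic, was 0.67 on the log2 scale, the highest of any member call. The size of this fall is thus uncertain. HY5 was not listed in EIN2C-EIN3DB. COP1, which removes HY5 protein in the dark, was listed in the EIN2-S645A table alone, as lower. COP1 (AT2G32950, chromosome 2, 13977933 to 13983535) had 4.36 FPKM and a log2 fold of -1.10 there in the authors' deposited table (q = 0.0053). That fold too lay close to the limit of the table, where 92.5% of lower genes with a finite fold fell further, and the absence of COP1 from the other 2 tables shows no difference between lines. HY5 and COP1 had the lowest FPKM of the members listed in EIN2-S645A, and PHYA had the highest.

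**Figure D2:**
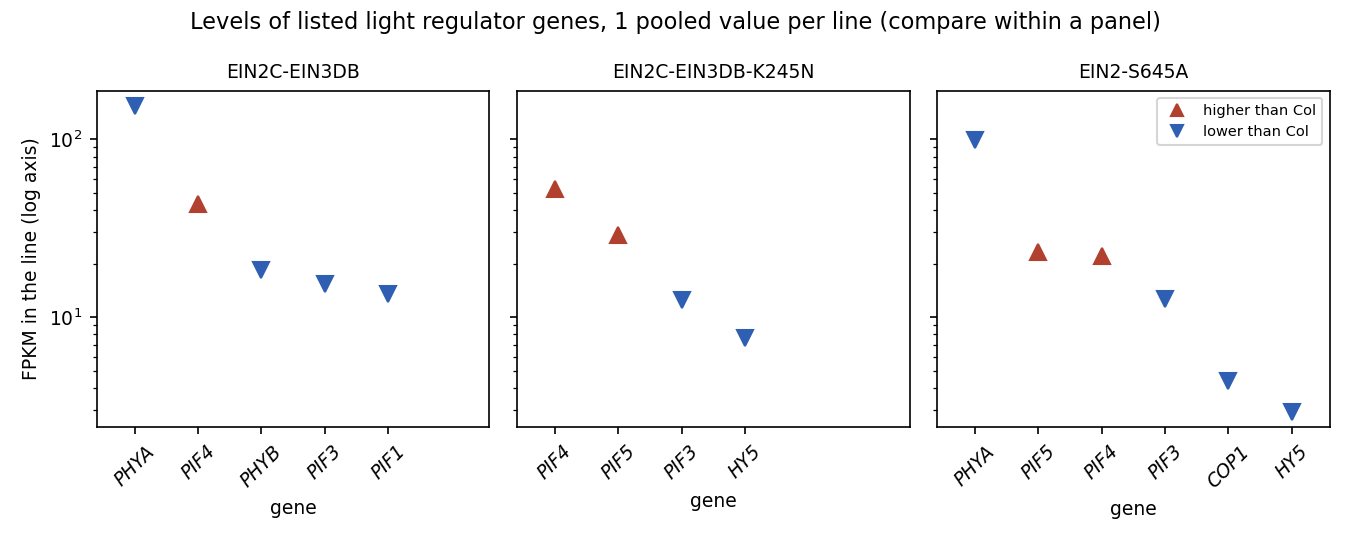
FPKM on a log axis (vertical) of the listed members (horizontal, ordered by level) in each line, 1 pooled value per line, with upward triangles for genes higher than Col and downward triangles for genes lower than Col. PHYA stands highest at 154 FPKM in EIN2C-EIN3DB and 99.3 FPKM in EIN2-S645A; tables were scaled separately, so levels compare within a panel.

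In counts, EIN2C-EIN3DB had 1 member higher and 4 lower, EIN2C-EIN3DB-K245N had 2 higher and 2 lower, and EIN2-S645A had 2 higher and 4 lower. The same calls took in 9.93% of all nuclear protein-coding genes as higher and 9.7% as lower in EIN2C-EIN3DB. They took in 6.41% and 6.33% in EIN2C-EIN3DB-K245N, and 11.8% and 13.9% in EIN2-S645A. Those shares are over all annotated genes, unexpressed ones included, so the share among expressed genes is higher and unknown here. Read against them, 4 of 9 (44.4%) lower members, the count in EIN2C-EIN3DB and again in EIN2-S645A, is above the background, and 1 of 9 (11.1%) higher in EIN2C-EIN3DB is near it. The median log2 fold of the 4 lower members was -1.33 in EIN2C-EIN3DB and -1.88 in EIN2-S645A, against -1.37 and -1.62 over all lower genes of the same authors' deposited tables. These values describe 9 genes chosen with earlier results known, and nothing particular to them is drawn from the shares.

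The 3 comparisons share the same Col, so equal directions in 2 lines are not independent. The deposited test statistic is, as Cuffdiff defines it, the log fold over its standard error, and the members' folds divided by it imply standard errors of 0.19 to 0.67 on the log2 scale. For the 9 cases in which a member was listed in 2 lines, the folds were set against an upper limit of the standard error of their difference, because the shared Col can only reduce it. In 8 of the 9 the difference was under 2 such standard errors. The exception was PIF4, chosen here after its values were seen, whose log2 fold was lower in EIN2-S645A than in EIN2C-EIN3DB-K245N (difference -1.29, upper standard error 0.51). The difference of HY5 between the same lines was -1.43 with an upper standard error of 0.78. For PIF3 no difference between lines exceeded 0.11 in size, with upper standard errors of 0.36 to 0.45. No test with replicate values was possible for these differences.

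The length of the deposited locus of a gene moved with the direction of its call, and the members differ in locus length. Such a locus can take in an overlapping neighbour, as for PIF1 at 5888 bp. The classes below are thus of loci and may mix long genes with merged ones. Among listed genes with a locus of at least 4000 bp, 85.1% were lower in EIN2-S645A, 68.1% in EIN2C-EIN3DB and 53.3% in EIN2C-EIN3DB-K245N. Among those under 1500 bp the shares were 20.7%, 34.8% and 48.7% in the same order of lines. PHYA, PHYB and COP1 have loci of 5102, 4550 and 5603 bp. All 4 of their calls were lower, in the 2 lines where genes with long loci were mostly lower. PIF4 and PIF5, at 2624 and 2530 bp, rose in EIN2-S645A, where 70.2% of listed genes of 2500 to under 4000 bp were lower. PIF3, at 2958 bp in the same class, fell in all 3 lines. Of the listed genes of that class, 59.4% were lower in EIN2C-EIN3DB and 53.3% in EIN2C-EIN3DB-K245N. HY5, the shortest at 1613 bp, fell most in EIN2-S645A, where 45.4% of listed genes of 1500 to under 2500 bp were lower. The part of locus length in the calls of the members, PIF3 included, was not tested. Every listed organelle gene was lower than Col in every line. These were 90 of 90 in EIN2C-EIN3DB, 81 of 81 in EIN2C-EIN3DB-K245N and 84 of 84 in EIN2-S645A. Whether this wider difference between the lines and Col bears on the calls of the members was not tested.

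**Figure D3:**
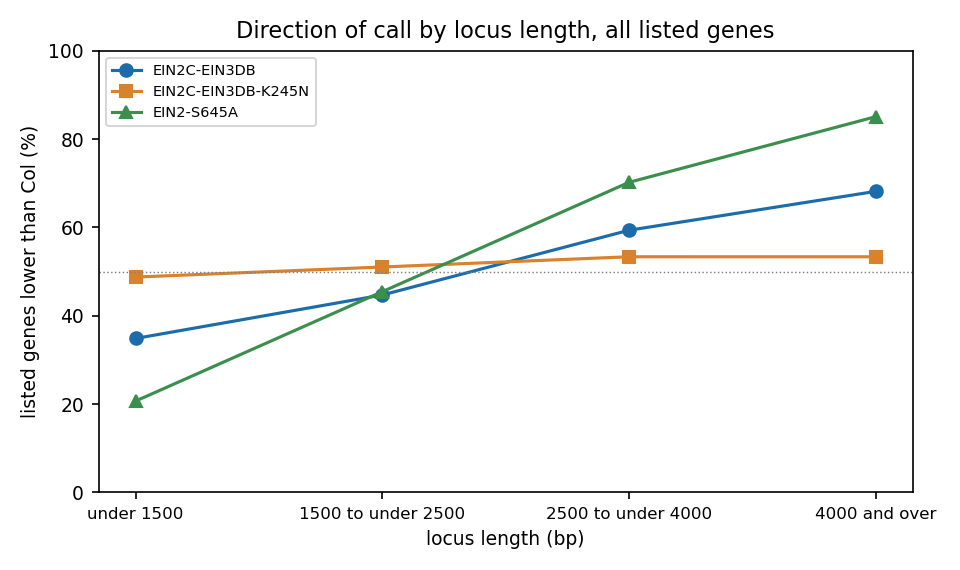
Share of listed genes that were lower than Col (vertical axis, percent) by locus length class (horizontal axis, bp) in each line, over all listed genes. The share rises from 20.7% to 85.1% with length in EIN2-S645A and stays between 48.7% and 53.3% in EIN2C-EIN3DB-K245N.

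Other genes of light signalling were counted in 5 lists with 61 genes in all. The lists were written with earlier results of these data known, so nothing particular to them is drawn from the shares below. The shares of all genes to read them against are those given above for the members: 9.93% higher and 9.7% lower in EIN2C-EIN3DB, 6.41% and 6.33% in EIN2C-EIN3DB-K245N, and 11.8% and 13.9% in EIN2-S645A. Of 14 photoreceptors and photoreceptor partners, 8 were lower and 0 higher in EIN2C-EIN3DB, 5 lower and 1 higher in EIN2C-EIN3DB-K245N, and 9 lower and 0 higher in EIN2-S645A. The lower shares were 57.1%, 35.7% and 64.3% in that order of lines, each above the share of all genes. PHYC and PHYE, which encode further phytochromes, were lower in all 3 lines. In the authors' deposited tables PHYC had a log2 fold of -1.70 in EIN2C-EIN3DB, -1.35 in EIN2C-EIN3DB-K245N and -3.16 in EIN2-S645A. FHY1, which carries PHYA into the nucleus, was lower in all 3 lines as well, at log2 -1.75, -1.37 and -2.35 in the authors' deposited tables, in the same order. PHOT1, a blue light receptor gene, was the exception, with a log2 fold of 1.53 in the authors' deposited table for EIN2C-EIN3DB-K245N. PHYC has a locus of 3939 bp, so the length pattern above touches it too.

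Among 7 further PIF relatives and their bHLH partners, 5 were lower and 0 higher in EIN2C-EIN3DB, 4 and 0 in EIN2C-EIN3DB-K245N, and 3 lower and 1 higher in EIN2-S645A. The lower shares of 71.4%, 57.1% and 42.9% were above those of all genes, on small counts. HEC2, which encodes a bHLH factor that can bind PIF1, had log2 folds of -4.24, -4.96 and -3.81 in the authors' deposited tables for the lines in that order. Its relative HEC1 was lower in all 3 lines as well, at log2 -3.47, -3.45 and -2.24 in the authors' deposited tables, in the same order. PIL1, a shade-induced target of the PIFs, was at log2 -4.02 in EIN2C-EIN3DB in the authors' deposited table and was not listed in the other lines. PIL1 was thus lower in a line where PIF4 was higher and PIF3 and PIF1 were lower.

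In the COP1 group of 11 genes, 3 were lower and 0 higher in EIN2C-EIN3DB, 1 and 0 in EIN2C-EIN3DB-K245N, and 4 lower and 1 higher in EIN2-S645A. The lower shares were 27.3% in EIN2C-EIN3DB and 36.4% in EIN2-S645A, above those of all genes, while the 1 of 11 (9.09%) in EIN2C-EIN3DB-K245N was near it. SPA3, which encodes a partner of COP1, was lower in all 3 lines, at log2 -2.07, -1.41 and -2.33 in the authors' deposited tables. Of 9 relatives and partners of HY5, 3 were lower and 2 higher in EIN2C-EIN3DB, 1 and 1 in EIN2C-EIN3DB-K245N, and 0 lower and 1 higher in EIN2-S645A. A count of 1 of 9 (11.1%) is near the share of all genes in either direction, and 3 of 9 (33.3%) lower and 2 of 9 (22.2%) higher in EIN2C-EIN3DB are above it. HYH, the closest relative of HY5, was lower in EIN2C-EIN3DB, at log2 -2.22 in the authors' deposited table, the line in which HY5 was not listed. HYH had a low level there, 2.63 FPKM, and was not listed in the lines in which HY5 was lower. An unlisted gene may have missed a limit, so these absences show no difference between lines.

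The 20 light output genes went in both directions in each line. They were 7 higher and 10 lower in EIN2C-EIN3DB, 8 and 7 in EIN2C-EIN3DB-K245N, and 9 and 5 in EIN2-S645A. The higher shares were 35%, 40% and 45% and the lower shares 50%, 35% and 25%, each above that of all genes. The light-harvesting genes LHB1B1, LHB1B2 and LHCB1.1 had the largest rises in every line, up to log2 12.58 for LHB1B1 in the authors' deposited table for EIN2-S645A. These values are uncertain one by one, since reads may be shared among near-identical LHCB1 copies. That LHB1B1 fold, at 4777 FPKM in the line, also implies a very low level in Col, so its size is uncertain. The authors' Cuffdiff q-value for it was 0.0182. PORA, which encodes the protochlorophyllide reductase of etiolated seedlings, was lower in all 3 lines, at log2 -4.11, -3.17 and -3.16 in the authors' deposited tables. Further genes of chlorophyll synthesis, named here after their values were seen, were lower too. HEMA1, a gene of the first committed step that light normally induces, had log2 folds of -1.45, -1.06 and -1.45 in the authors' deposited tables, in the same order. GUN5, which encodes a subunit of magnesium chelatase, had -2.57, -1.55 and -1.65 in the authors' deposited tables on the log2 scale. The reductase genes PORB and PORC were lower in all 3 lines, PORC at log2 -2.08, -1.53 and -1.62 in the authors' deposited tables, and GUN4 was lower in both fusion lines and not listed in EIN2-S645A. The growth genes IAA29 and YUC8, known targets of PIF4, were higher in the lines in which PIF5 was higher too. Both were picked after their values were seen, and neither was listed in EIN2C-EIN3DB, where PIF4 was also higher. ATHB-2 and XTR7, from the same list, were lower in EIN2C-EIN3DB and unlisted in the other lines. For them the authors' deposited log2 folds were -2.41 and -1.16. A link of these genes to PIF4 or PIF5 was not tested. IAA29 had a log2 fold of 2.13 and YUC8 one of 1.47 in the authors' deposited table for EIN2C-EIN3DB-K245N, and at 1.42 and 1.22 in that for EIN2-S645A. ELIP2, a gene induced by strong light, is listed at 0 FPKM in the authors' deposited table for EIN2C-EIN3DB-K245N. It had a log2 fold of -2.84 in the authors' deposited table for EIN2C-EIN3DB, while its near relative ELIP1 had one of 1.53. As markers of light exposure these genes did not move one way: the 6 light-harvesting genes of the list, which light induces, were higher in all 3 lines, PORA, which light represses, was lower, and the light-induced HEMA1, GUN5 and PORC were lower as well. They moved in the same libraries as the calls on the members, and their part in those calls was not tested.

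**Figure D4:**
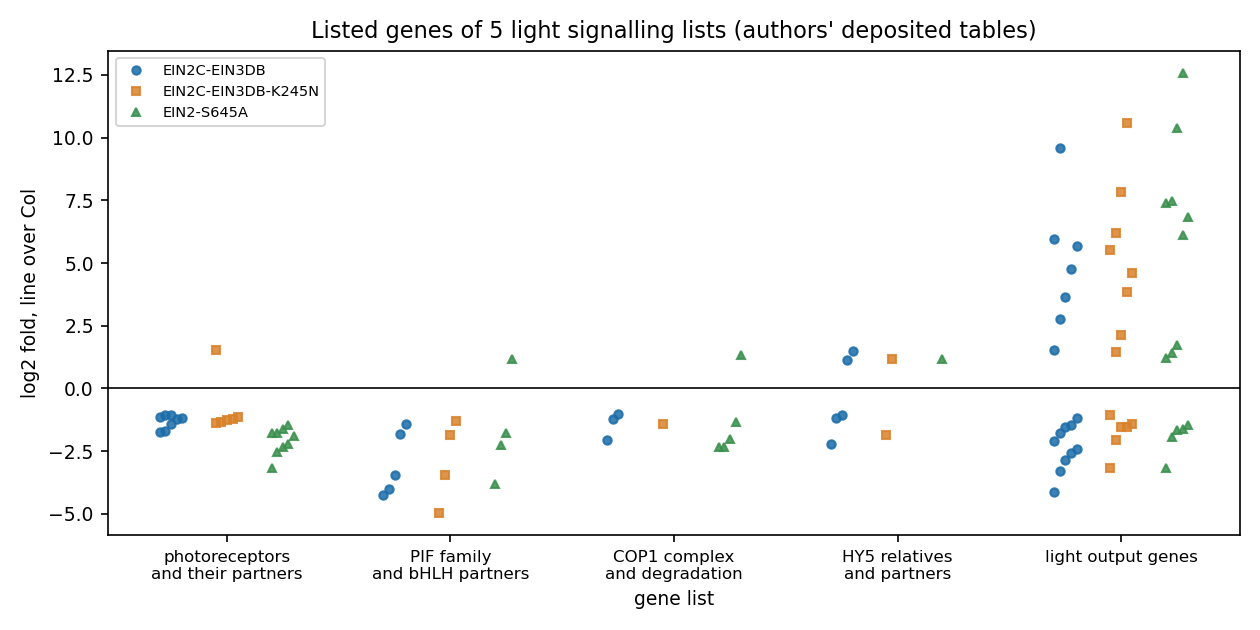
Log2 fold over Col (vertical axis) of each listed gene in 5 light signalling lists (horizontal axis) in the 3 lines; 1 symbol per gene, unlisted genes and the gene listed at 0 are not drawn. The photoreceptor symbols lie below 0 except 1 at 1.53, and the light output genes reach from -4.11 to 12.58.

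By likeness of folds, the genes nearest to PIF3 were NdhN, AT5G02440 and AT3G47680. Likeness was the Euclidean distance between the 3 log2 folds, over 1824 genes with a finite fold in all 3 tables. NdhN, a subunit gene of the plastid NADH dehydrogenase-like complex, lay at a distance of 0.051 from PIF3, with log2 -2.21, -2.07 and -2.12 in the authors' deposited tables. The nearest to PIF4 were AT1G14960 at 0.24, AT1G33811 at 0.24 and OEP16-1, a gene of the plastid outer envelope, at 0.34. The implied standard errors of the folds were 0.24, 0.27 and 0.36 for PIF3 and 0.25, 0.31 and 0.41 for PIF4, in the same order of lines. The order of the nearest genes is thus not resolved. A distance over 3 lines that share Col is a description of these tables.

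Over the 6 libraries together, EIN2 antibody peaks lay at 5 of the 9 members, with fold enrichments between 2.34 and 3.36. The share of all genes with a peak in at least 1 of the 6 libraries was not counted. The 5 of 9 thus has no like share to be read against. Of the 10 peaks, those at PIF1 and, in ein3-1 eil1-1 air replicate 2, at HFR1 stood above the median of their own library, at 3.36 beside 3.12 and at 2.90 beside 2.39. The PIF5 peak in Col-0 ethylene stood at the median, 3.06, and the other 7 lay below theirs. In Col-0 with EIN2C-EIN3DB, peaks lay in or within 1000 bp of PHYA, PIF5 and HFR1 in the ethylene library and of PIF1 and PIF5 in the library titled air. Peaks of these libraries lay that close to 4.82% of all nuclear protein-coding genes in ethylene and to 3.1% in the library titled air, so 3 of 9 and 2 of 9 members were above the background on small counts. In ein3-1 eil1-1 with EIN2C-EIN3DB, no member had a peak shared by both replicates, in ethylene or in air, where 0.0875% and 0.222% of all genes had one. At those shares a set of 9 genes would rarely hold any, so the 0 of 9 says little. Fold enrichments and -log10 q values below are the authors' own values for each peak.

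PHYA had 3 peaks in the Col-0 ethylene library. The first, chr1:3097130-3097307, lay in the gene with a pileup of 15 tags, a fold enrichment of 2.76 and a -log10 q of 1.59. Another, chr1:3100263-3100383, crossed the end of the deposited locus with a fold of 2.39, and the last, chr1:3101232-3101304, lay 875 bp outside it with a fold of 2.96. The gene AT1G09575 also lies within 1000 bp of these 2. The library titled air had no peak in reach of PHYA.

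PIF5 was the only member with a peak in both Col-0 libraries, and the 2 peaks did not overlap. In ethylene the peak chr3:21827637-21827739 lay 239 bp outside the deposited locus, with a pileup of 24 tags, a fold enrichment of 3.06 and a -log10 q of 3.74, the highest -log10 q of any member peak. In the library titled air the peak chr3:21828415-21828493 lay inside the gene, with a pileup of 16 tags, a fold of 2.88 and a -log10 q of 1.53. The neighbour PAO3 lies within 1000 bp of both. PIF5 RNA was measured in other seedlings, in air, and was higher in EIN2C-EIN3DB-K245N and EIN2-S645A but not listed in the EIN2C-EIN3DB line that matches the ChIP transgene.

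HFR1, the member with no RNA call, had peaks in 2 libraries at overlapping positions. The Col-0 ethylene library had chr1:465586-465673, with a fold enrichment of 2.34 and a -log10 q of 0.86, and a further peak chr1:468862-468949 on the other side of the gene with a fold of 2.44. In ein3-1 eil1-1 air replicate 2 the peak chr1:465496-465768 had a pileup of 32 tags, a fold of 2.90 and a -log10 q of 3.45, and only 16.1% of that library's peaks had a higher fold. Replicate 1 of the same group had no peak in reach of HFR1. Peaks of replicates 1 and 2 taken alone lay at 0.681% and 0.736% of all genes. The neighbour GL22 lies within 1000 bp of both overlapping peaks, and AT1G02350 within 1000 bp of the further Col-0 ethylene peak.

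PIF1 and HY5 had 1 peak each. Near PIF1 the peak chr2:8703811-8703927 in the library titled air had a pileup of 13 tags, a fold enrichment of 3.36 and a -log10 q of 1.85. It lies inside the overlapping gene AT2G20170, so it cannot be given to PIF1 alone. In ein3-1 eil1-1 ethylene replicate 1, HY5 held chr5:3594688-3594783 with a fold of 2.69 and a -log10 q of 0.69, and replicate 2 had none there. The neighbour OCP3 lies within 1000 bp of the HY5 peak. In that group peaks of replicates 1 and 2 taken alone lay at 0.554% and 0.565% of all genes.

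No peak lay within 1000 bp of PHYB, PIF3, PIF4 or COP1 in any of the 6 libraries. The peak nearest to PIF3 was chr1:3072498-3072623 in Col-0 ethylene, 3959 bp from its deposited locus, with a fold enrichment of 2.98. It lay within 1000 bp of the gene AT1G09520. The nearest peak to PIF4 was 14806 bp away, in the same library. The 2 members whose RNA differed in all 3 lines had no peak in reach, and neither did most genes. Only 4.82% of all nuclear protein-coding genes had one in Col-0 ethylene and 3.1% in the library titled air. Of the 5 members with a peak, 3 had it in libraries from Col-0 only. Single ein3-1 eil1-1 libraries had peaks at fewer genes, 0.554% to 0.736% of all. Nothing particular to the members is drawn from these counts.

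**Figure D5:**
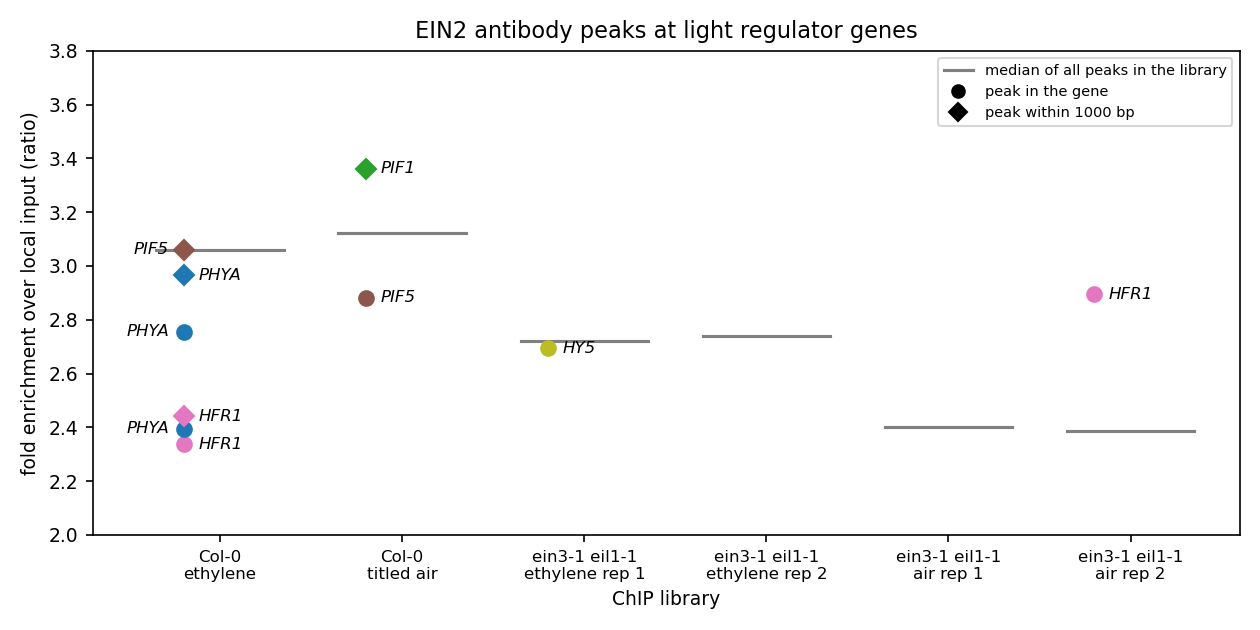
Fold enrichment over local input (vertical axis, a ratio; the axis starts at 2) of each authors' peak in or within 1000 bp of a member in the 6 ChIP libraries (horizontal axis); grey lines mark the median over all peaks of that library. In the Col-0 libraries the member peaks lie at 2.34 to 3.36, beside medians of 3.06 in ethylene and 3.12 in the library titled air.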

How the data were processed

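The submitters' processing notes name Cuffdiff 2.2.1 and TAIR10 for the FPKM values that the authors deposited. Per the file headers, the deposited tables hold FPKM, log2 fold, test statistic (a score), p-value and q-value. They keep genes by fold and level, per their names, and no source used here gives the RNA aligner. The EIN2C-EIN3DB-K245N folds were turned to line over Col. The 3 Col value columns were not used.

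The authors ran MACS2 2.1.0.20150603 on each ChIP library with a p limit of 0.001, per the file headers. The deposited lists give pileup signal, fold enrichment (a ratio) and -log10 p and q values. The headers say q was not calculated, yet the column holds values, which were read as named. Peaks were assigned to a gene if they overlapped it or its 1000 bp flanks, with gene positions from an annotation of TAIR10.1, of which no coordinate is printed; it holds no strand. In ein3-1 eil1-1 a peak counted if replicates 1 and 2 both had it, with an overlap of 1 bp or more. Of 10057 listed identifiers, 9942 were found in that annotation. Deposited locus starts were raised by 1 bp to count from 1.

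Lines were not tested, as RNA replicates are pooled, and the authors' calls are used. All 9 members are named. From the lists, the 3 largest rises and falls per line are named, plus genes chosen after their values were seen; 2 of 63 identifiers whose symbol the annotation lacks were dropped. The members and lists were chosen with earlier results of these data known. The length classes, the differences between lines and their standard errors were added after the data were seen. Promoter motifs were planned but not analysed, as no sequence was used here. Placement was tested on simulated peaks. Python 3.11.15, pandas 2.3.3 and numpy 2.4.6 were used.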

Additional observations from a re-analysis of the deposited data

How the results depend on the processing

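Of 36 alternatives to 10 counts, 25 left the count within 1.5 times. The 25 include counts of 0 members in ein3-1 eil1-1, which stricter limits could only leave at 0. The tally is therefore no measure of stability. At a fold of at least 4, the members called were 1 in EIN2C-EIN3DB (PIF3), 2 in EIN2C-EIN3DB-K245N (PIF3 and PIF4) and 2 in EIN2-S645A (PIF3 and HY5), against 5, 4 and 6, and the calls over the 5 lists were 17, 12 and 16, against 38, 28 and 33. A level of at least 5 FPKM left 4 members in EIN2-S645A, without COP1 and HY5, and a q-value of at most 0.01 left every member call in place. With no flank, 1 member had a peak in Col-0 titled air (PIF5), against 2. At a -log10 q of at least 5, 0 members had a peak in Col-0 ethylene, against 3, and 0 in Col-0 titled air, against 2. Leaving out a replicate gave 0 to 1 members with a peak in ein3-1 eil1-1 ethylene (HY5, in replicate 1 alone) and 0 to 1 in air (HFR1, in replicate 2 alone), where single replicates placed peaks at 0.554% to 0.736% of all genes. Fewer genes or peaks entered under each stricter limit, which lowers these counts by construction. No paired analysis was possible because the RNA tables pool replicates and the ChIP counts come from no test. RNA replicates were not left out for the same reason. Tags removed as duplicates, 0.56 to 0.61 of the Col-0 libraries and 0.20 to 0.30 of the ein3-1 eil1-1 libraries, limit detection, and the 2 Col-0 libraries have no replicate.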
